A study of Mus musculus with 30 samples.

Results

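Hypothalamus from mice fasted for 72 h and held in the cold at 18 C (n = 3 libraries) was compared with hypothalamus from fed mice (n = 3 libraries). These 6 libraries belong to a series of 30 that follows the mouse hypothalamus through fasting and refeeding, and all 20408 genes that passed a filter on low counts were compared, of 52286 genes in the count table. Every mouse is labelled wild type and B6, an inbred laboratory strain, and no allele, transgene or agent is named. The sources used here do not give age, sex, the temperature at which the fed mice were kept or the part of the fast that was spent in the cold. Cold without a fast was not analysed here, so in the comparison with fed mice the fast and the cold cannot be told apart. Mice fasted for 72 h without the cold label (n = 3) allow a direct test between the fasted groups, and these libraries, with those of mice fasted for 24 h (n = 3), also entered the estimate of the spread. Nothing says that each library came from a separate animal, so p-values measure only the spread between libraries.

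The hypothalamus joins hunger, stress and body temperature. In its arcuate nucleus, neurons that make agouti-related peptide and neuropeptide Y drive feeding, and neurons that make pro-opiomelanocortin restrain it. A long fast is known to raise circulating glucocorticoids, which act through a nuclear receptor on genes such as Fkbp5, and to quieten the thyroid and reproductive axes. Neurons of the preoptic area set body temperature, and in cooled mammalian cells the RNA-binding proteins Cirbp and Rbm3 are known to become more abundant.

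Total counts, in units of 1000000, were between 32.5 and 34.8 in cold fasted libraries and between 27.1 and 36.2 in fed libraries. Values are CPM, counts scaled to 1000000 assigned reads with the TMM factors of edgeR, given for libraries 1, 2 and 3 in that order. Summed CPM of a gene list cover all its genes in the count table, tested or not, and are scaled by total counts without TMM factors. The lists and their members were chosen with earlier results of these data known. List shares set beside those of all genes are therefore descriptions, and no list was tested as a set. Changes are edgeR log2 fold changes, cold fasted over fed, ± SE, and a gene was called at a Benjamini-Hochberg adjusted p below 0.05 from the quasi-likelihood test over all genes. Genes known from the hypothalamus were present in each of the 6 libraries: Avp, the vasopressin gene, had 38.9, 51.5 and 12.0 CPM in cold fasted libraries and 42.4, 82.7 and 42.4 CPM in fed libraries. Pairs of libraries within the cold fasted or the fed group differed by more than sampling noise, the chi-square divided by its degrees of freedom lying between 18.8 and 106. Single libraries stood apart. Fed library 2 held transcripts of skeletal muscle and liver, with summed CPM of 3160 over 20 muscle genes and 1520 over 21 liver genes. Cold fasted library 3 had the lowest Avp level of the 6 and 6760 summed CPM of 18 mature oligodendrocyte genes, against 3840 and 4400 in the other cold fasted libraries. Fed library 3 differed most from its group, with a chi-square divided by its degrees of freedom of 73.6 and 106 against fed libraries 1 and 2, which differed from each other by 21.5. On the first principal component of all 12 libraries the cold fasted libraries stood at -30.2, -27.3 and -17.4 and the fed libraries at 35, 45.1 and 6.1. The 72 h fasted libraries stood at -17.1, -21.6 and -28.6 and the 24 h fasted libraries at 1.8, 48.3 and 5.9. Library 2 of the 24 h fast lay beyond every fed library, so this component did not separate fed from fasted libraries. The same chi-square measure was 95.9 and 79.1 for 24 h fasted library 2 against libraries 1 and 3 of its group, and 3.51 between those 2. That library, which entered only the estimate of the spread, was not removed singly. The cold fasted and fed groups fitted alone, without the 24 h and 72 h fasted libraries, gave 2612 calls. For these reasons results are given with the count of calls left when each of the 6 cold fasted and fed libraries was removed in turn. In such bulk tissue, fewer cells of a type and less RNA per cell cannot be told apart. The counting is not stated to use strand, so reads where genes overlap cannot be assigned with certainty. Among the genes named below, other genes cover 36.7% of the span of Aqp4, 21.9% of Ckm, 18.5% of Pcsk2, 15.9% of Srr, 14.4% of Dbp, 14.1% of Ccnd2 and 10.8% of Nid1, and further shares above 10% stand beside their genes.

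In the cold fasted hypothalamus 3661 of 20408 genes were called (17.9%), 1791 higher (8.78%) and 1870 lower (9.16%), and 1340 of them differed more than 2-fold (6.57%), 807 higher (3.95%) and 533 lower (2.61%). The libraries of the groups did not overlap in 3681 genes that were higher (18%) and 4079 that were lower (20%). The median log2 fold change of all genes tested was -0.03. The number of calls depended on single libraries. It was 932, 2036 and 2437 without cold fasted library 1, 2 and 3, and 1596, 1132 and 5507 without fed library 1, 2 and 3. Without fed library 2 and cold fasted library 3 together, a setting chosen after seeing the data, 476 genes were called, 217 higher and 259 lower, and 459 of these were among the 3661. Of the 93 called genes named below, 60 kept their call without each of the 6 libraries in turn. Among these, Btg2, Dbp, Ddit4, Htr7, Ifit3, Mfsd2a, Pdia6, Pomc and Rora lost it when fed library 2 and cold fasted library 3 were both removed, with adjusted p between 0.0528 and 0.0749.

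**Figure D1:**
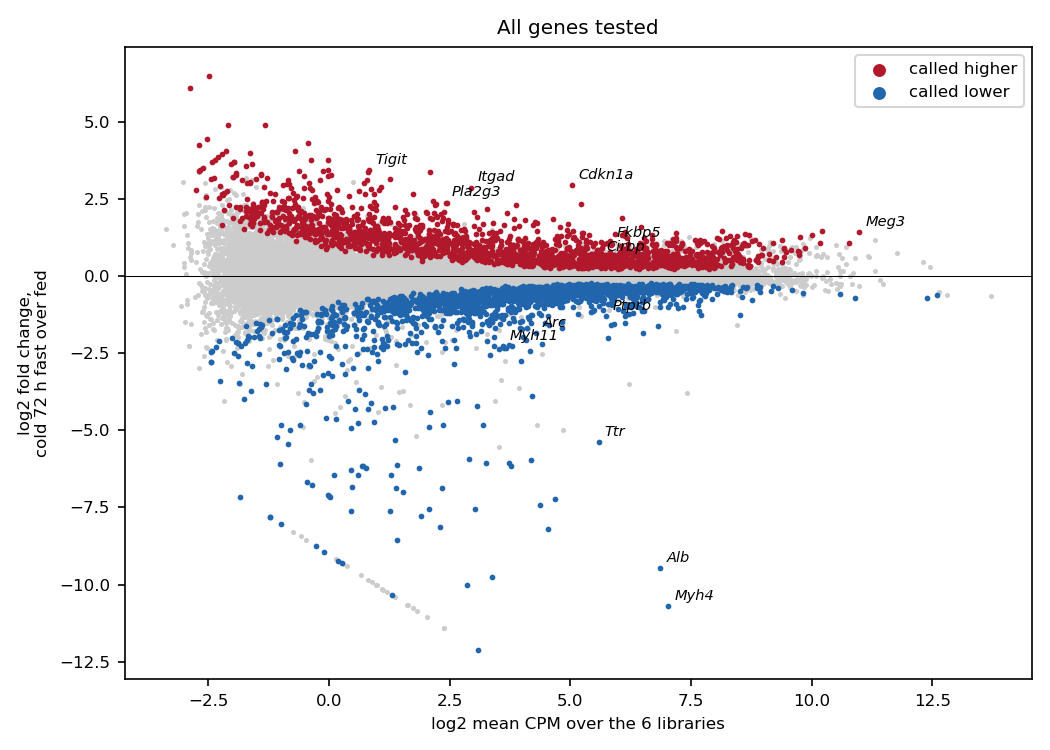
Log2 fold change of each gene tested, cold 72 h fast over fed (vertical axis), against its log2 mean CPM over the 6 libraries (horizontal axis), with called genes in colour. The 1791 genes called higher lie above 0 and the 1870 called lower lie below it, and liver and muscle genes, among them Alb and Myh4, are among the lowest points.

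Glucocorticoid-responsive genes were called higher in many members. Of 32 tested, 15 were called (46.9%, against 8.78% of all genes), each of them higher, and the median of the list was 0.45 on the log2 scale. Fkbp5 encodes an Hsp90 partner that lowers the affinity of the receptor for its hormone (ENSMUSG00000024222, GRCm38 chromosome 17, 28399094 to 28517527, minus strand). It had 84.2, 68.8 and 77.0 CPM in cold fasted libraries, against 36.8, 37.1 and 35.3 CPM in fed libraries. The lowest cold fasted library stood well above the highest fed one, a 2.11-fold difference (log2 fold change 1.08 ± 0.10, edgeR adjusted p = 0.000277). Cdkn1a, which encodes p21, a brake on cell division (ENSMUSG00000023067, chromosome 17, 29090976 to 29100727, plus strand), had 66.8, 32.3 and 75.1 CPM in cold fasted libraries and 8.72, 6.68 and 7.17 CPM in fed libraries. Cold fasted library 2 was the lowest of its group and still several times above each fed library (2.95 ± 0.29, edgeR adjusted p = 0.000567). Arrdc2, an arrestin-domain gene (ENSMUSG00000002910, chromosome 8, 70835129 to 70839720, minus strand), had 26.0, 24.7 and 34.6 CPM in cold fasted libraries and 10.7, 7.93 and 8.28 CPM in fed libraries, with no overlap (1.66 ± 0.15, edgeR adjusted p = 0.000219). Fkbp5 shares 12.9% of its span with other genes and Cdkn1a 10.7%.

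Further called members of the glucocorticoid list have roles in fat, oxygen and growth signalling. Plin4, a coat protein of lipid droplets, had 73.6, 95.4 and 146 CPM in cold fasted libraries and 25.6, 39.1 and 21.1 CPM in fed libraries (1.88 ± 0.29, edgeR adjusted p = 0.0047). Angptl4, a secreted inhibitor of lipoprotein lipase, rose by 1.5 ± 0.28, and Hif3a, a member of the hypoxia-inducible factor family, by 1.13 ± 0.15. Ddit4, an inhibitor of the growth kinase mTORC1, rose by 0.97 ± 0.16. These 7 genes kept their call without each single library, with adjusted p no higher than 0.0361 for Angptl4. The other 8 called members rose by between 0.29 (Klf15, a fasting-induced transcription factor) and 0.88 (Sgk3, a kinase). Klf15 kept its call in 1 of the 6 removals, that of cold fasted library 2 (adjusted p between 0.0548 and 0.136 in the others), and Sgk3 lost its call without fed library 1 (0.0524) or 2 (0.0567). Sgk1, the related kinase known as a glucocorticoid target, had 193, 180 and 262 CPM in cold fasted libraries and 154, 76.8 and 127 CPM in fed libraries. Its groups did not overlap (0.83 ± 0.21, edgeR adjusted p = 0.0205), and the call was lost without cold fasted library 3 (adjusted p = 0.0632). Per1, a clock gene that glucocorticoids induce, was not called at 0.40 ± 0.15, and Nr3c1, the receptor gene itself, was not called at -0.23 ± 0.10. Without cold fasted library 1, 2 and 3 the list had 9, 15 and 11 genes called higher, and without fed library 1, 2 and 3 it had 9, 9 and 13. It had 6 without fed library 2 and cold fasted library 3 together.

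The promoter letters of Sgk1 show the kind of sequence the receptor is known to bind. In RefSeq promoters, taken from 250 bases before to 50 bases after each start, the palindromic glucocorticoid response element occurred on either strand in 4 of the 26 list members with a promoter and in 0.537% of all 27025 genes. The shorter motif AGAACA, one arm of that palindrome, occurred in 5 of the 26 and in 21.3% of all genes. The stretch of Sgk1 below (GRCm38.p6, chr10:21993672-21993744, plus strand) lies upstream of the start, with the element in capitals, 188 bases before the start.
Sgk1: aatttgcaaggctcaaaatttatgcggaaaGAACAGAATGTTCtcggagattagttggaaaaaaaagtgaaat

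**Figure D2:**
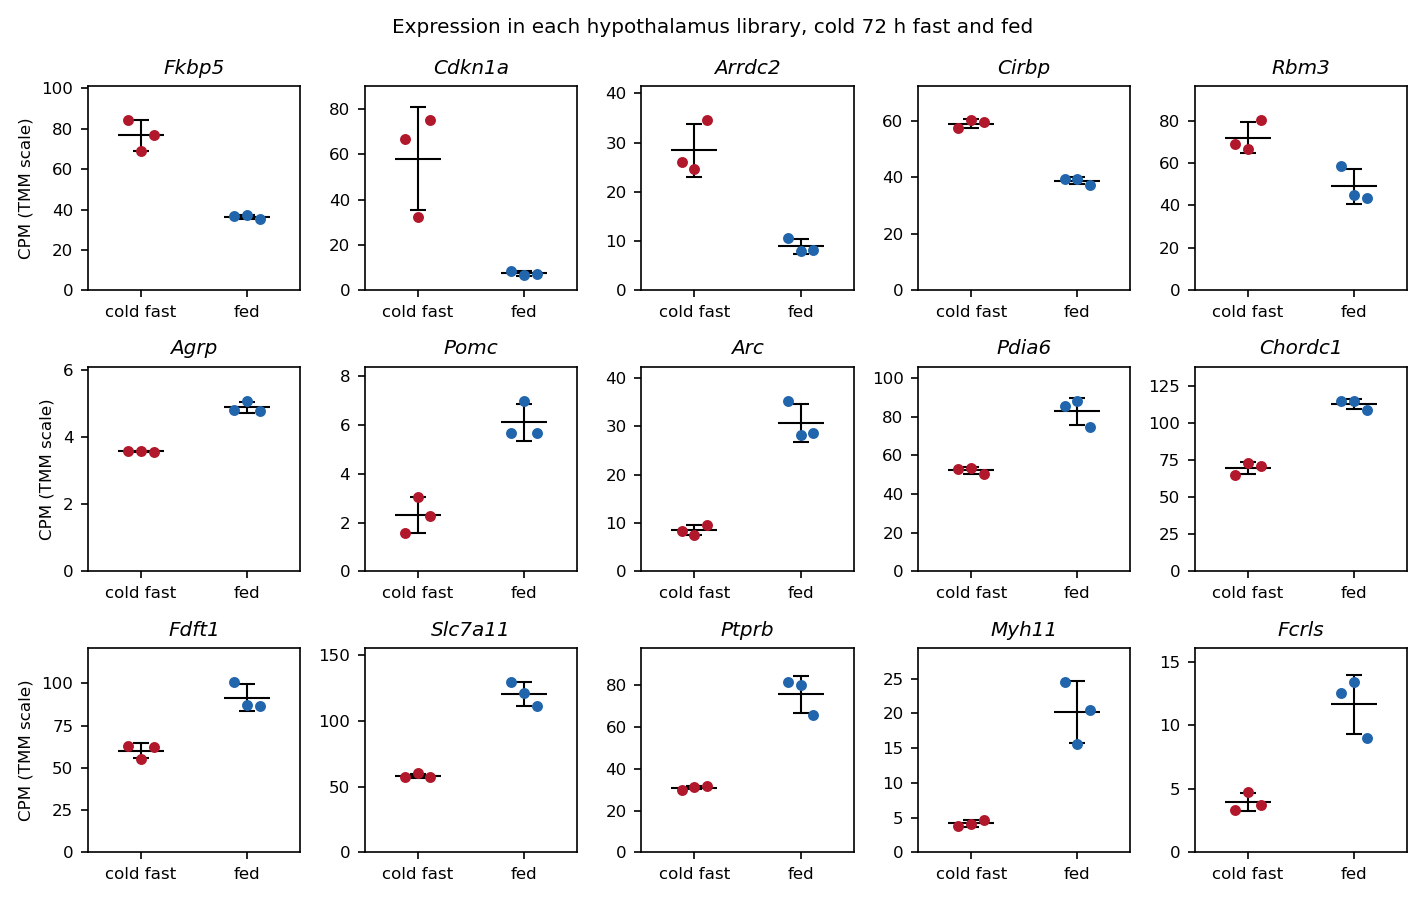
CPM on the TMM scale in each library for 15 named genes (vertical axes start at 0), cold 72 h fast left and fed right, with the mean and SD of 3 libraries in black. The groups do not overlap in any of the 15 panels, and Rbm3 lies between 66.4 and 80.2 CPM after the cold fast and between 43.7 and 58.6 CPM in fed libraries.

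Both cold-inducible RNA-binding protein genes were higher than in fed mice. Cirbp (ENSMUSG00000045193, chromosome 10, 80165985 to 80172786, plus strand) had 57.4, 60.3 and 59.5 CPM in cold fasted libraries and 39.6, 39.3 and 37.4 CPM in fed libraries. The values within each group were close together and the groups were far apart, a 1.52-fold difference (0.61 ± 0.09, edgeR adjusted p = 0.00328), and the call held without each single library (adjusted p at most 0.0166). Rbm3 (ENSMUSG00000031167, chromosome X, 8138975 to 8145880, minus strand) had 69.1, 66.4 and 80.2 CPM in cold fasted libraries and 58.6, 45.1 and 43.7 CPM in fed libraries. Its groups did not overlap, with 0.55 ± 0.17 (edgeR adjusted p = 0.0416). This call was lost without cold fasted library 1 (adjusted p = 0.0865), 2 (0.065) or 3 (0.109) and without fed library 2 (0.138) or 3 (0.0814). Srsf5, a splicing factor placed on the same list, was not called (0.16 ± 0.18). Relative to the 72 h fast without cold neither Cirbp nor Rbm3 was called: Cirbp stood at -0.01 ± 0.09 (95% interval -0.21 to 0.19) and Rbm3 at 0.08 ± 0.17 (-0.28 to 0.45).

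The mild cold response element TCCCCGCC, described upstream of Cirbp in mouse cells, was searched on both strands in the same promoters and occurred in 6.19% of all genes. The promoter of Cirbp held it once, 247 bases before the start used by RefSeq (GRCm38.p6, chr10:80167589-80167629, plus strand), shown in capitals.
Cirbp: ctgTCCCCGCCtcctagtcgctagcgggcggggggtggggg

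Few genes of thermoregulatory neurons and of local thyroid hormone action were called. Of 17 preoptic and thermoregulatory genes, 2 were called, both lower (11.8%, near the 9.16% of all genes). Ptger3, the prostaglandin E receptor through which fever signals act, had 11.5, 11.5 and 10.9 CPM in cold fasted libraries and 16.0, 15.5 and 14.6 CPM in fed libraries (-0.44 ± 0.12, edgeR adjusted p = 0.0276). Nos1, neuronal nitric oxide synthase, fell by 0.53 on the log2 scale (-0.53 ± 0.15). Of these 2 calls, 0 were left without cold fasted library 1 or 3 or without fed library 1 or 2, and 1 was left without cold fasted library 2. Of 12 thyroid hormone genes, 1 was called higher (8.33%, against 8.78% of all genes) and 2 lower (16.7%, against 9.16%). Hr, a corepressor gene that thyroid hormone induces in brain, had 84.9, 65.6 and 113 CPM in cold fasted libraries and 37.0, 40.8 and 25 CPM in fed libraries. All 3 cold fasted values exceeded each fed value (1.36 ± 0.19, edgeR adjusted p = 0.00289, at most 0.0141 without any single library). Slco1c1, a transporter that carries thyroxine across brain endothelium and is also one of the endothelial markers below, fell to 23.2, 30.4 and 29.8 CPM in cold fasted libraries, against 47.6, 41.3 and 50.9 CPM in fed libraries (-0.75 ± 0.15, edgeR adjusted p = 0.00823). Thrsp, a thyroid hormone responsive gene of fat synthesis, fell by 1.5 on the log2 scale, and its call was lost without cold fasted library 1 (adjusted p = 0.0527).

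Of the arcuate feeding peptides, Pomc was lower and the others were not called. Pomc, which encodes the precursor of the melanocortin alpha-MSH (ENSMUSG00000020660, chromosome 12, 3954951 to 3960642, plus strand), had 1.59, 3.04 and 2.28 CPM in cold fasted libraries and 5.69, 6.98 and 5.67 CPM in fed libraries. Every cold fasted library lay below every fed one, a 2.65-fold lower level (-1.41 ± 0.28, edgeR adjusted p = 0.0089, at most 0.0473 without any single library and 0.0749 without fed library 2 and cold fasted library 3 together). Agrp, the orexigenic melanocortin antagonist (ENSMUSG00000005705, chromosome 8, 105566698 to 105637393, minus strand), had 3.61, 3.58 and 3.58 CPM in cold fasted libraries and 4.82, 5.08 and 4.78 CPM in fed libraries. Its cold fasted values were the lower ones without overlap, but the difference did not pass (-0.45 ± 0.15, edgeR adjusted p = 0.0522), and 59.9% of the span assigned to Agrp is shared with other genes. Npy, neuropeptide Y, had 14.1, 17.9 and 12.2 CPM in cold fasted libraries and 15.4, 21.7 and 13.1 CPM in fed libraries, with overlapping ranges (-0.18 ± 0.25, edgeR adjusted p = 0.63). Cartpt, the CART peptide gene, also overlapped (0.10 ± 0.36, edgeR adjusted p = 0.856). Of the 29 feeding peptide genes tested, 1 was called higher (3.45%, against 8.78% of all genes) and 4 lower (13.8%, against 9.16%), with a median of -0.15.

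The other called peptides were opioid and tachykinin precursors and ghrelin. Penk, the enkephalin precursor, had 51.6, 76.8 and 38 CPM in cold fasted libraries and 161, 252 and 96.1 CPM in fed libraries (-1.61 ± 0.35, edgeR adjusted p = 0.0148). The groups did not overlap, and the call was lost without cold fasted library 1 (adjusted p = 0.0658). Tac1, the substance P precursor, and Pdyn, the dynorphin precursor, stood at -1.23 ± 0.30 and -1.05 ± 0.27. Their calls were lost without cold fasted library 1 (adjusted p = 0.0891 for Tac1 and 0.106 for Pdyn) or 3 (0.0647 and 0.0742) and without fed library 2 (0.0678 and 0.0931). Penk and Tac1 are also markers of striatal projection neurons, and the summed CPM of the 18 striatal genes was 917, 1140 and 885 in cold fasted libraries and 1310, 1820 and 1100 in fed libraries. The part of those genes' level in the peptide values was not tested. Ghrl, the ghrelin gene, stood at 0.58 ± 0.17, with 18.6% of its span shared, and of the 6 removals only that of fed library 3 left its call, with adjusted p between 0.0559 and 0.129 in the others.

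Among 32 feeding receptors, 1 was called higher (3.12%, against 8.78% of all genes) and 5 lower (15.6%, against 9.16%). Mchr1, the receptor of melanin-concentrating hormone, had 6.81, 6.31 and 6.40 CPM in cold fasted libraries and 12.5, 15.1 and 8.63 CPM in fed libraries (-0.89 ± 0.20, edgeR adjusted p = 0.0131), and lost its call without cold fasted library 1 (adjusted p = 0.051) or fed library 2 (0.0589). Gpr83, Oprd1 (the delta opioid receptor), Npy2r (the presynaptic Y2 receptor) and Cnr1 (the cannabinoid CB1 receptor) stood between -0.91 and -0.51. Gpr83 lost its call without cold fasted library 1 or fed library 2, Oprd1 and Cnr1 without cold fasted library 1 or 3 or fed library 1 or 2, and Npy2r without cold fasted library 1 or 3 or fed library 2 or 3. Adipor2, an adiponectin receptor, stood at 0.45 ± 0.14 and kept its call in 1 removal, that of cold fasted library 1 (adjusted p between 0.0531 and 0.137 in the others). The 5 lower calls were fragile: 0, 5 and 2 were left without cold fasted library 1, 2 and 3, and 3, 0 and 7 were made without fed library 1, 2 and 3. Lepr, the leptin receptor, had 10.2, 17.7 and 13.4 CPM in cold fasted libraries and 8.88, 7.62 and 11.5 CPM in fed libraries and was not called (0.56 ± 0.21, edgeR adjusted p = 0.0711).

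Immediate early genes, which neurons switch on within minutes of activity, were called lower in many members. Of 37 tested, 18 were called lower (48.6%, against 9.16% of all genes) and 1 higher, with a median of -0.67. Arc, a synaptic gene induced by activity (ENSMUSG00000022602, chromosome 15, 74669083 to 74672570, minus strand), had 8.43, 7.58 and 9.59 CPM in cold fasted libraries and 35.2, 28.2 and 28.6 CPM in fed libraries. All cold fasted values lay far below all fed values, a level 3.59-fold lower (-1.84 ± 0.21, edgeR adjusted p = 0.00102). Fosl2, a partner of Jun in the AP-1 factor, had 12.3, 11.9 and 8.02 CPM in cold fasted libraries and 27.5, 22 and 28.3 CPM in fed libraries (-1.27 ± 0.20, edgeR adjusted p = 0.00395). Homer1, a scaffold of postsynaptic glutamate receptors whose short form is activity-induced, fell by 0.83 on the log2 scale (-0.83 ± 0.14). Btg2, an antiproliferative immediate early gene, had 6.45, 6.94 and 5.92 CPM in cold fasted libraries and 13.9, 14.5 and 9.62 CPM in fed libraries (-0.98 ± 0.16, edgeR adjusted p = 0.00464). All 4 genes kept their call without each single library, with adjusted p no higher than 0.0254.

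The 1 immediate early gene called higher was Maff, a small Maf transcription factor, with 5.29, 3.84 and 4.51 CPM in cold fasted libraries and 2.20, 1.25 and 2.08 CPM in fed libraries (1.30 ± 0.23, edgeR adjusted p = 0.00524, at most 0.027 without any single library). Fos, chosen after its values were seen, had 7.73, 5.74 and 7.24 CPM in cold fasted libraries and 17.6, 9.42 and 13.0 CPM in fed libraries. The groups did not overlap (-0.95 ± 0.26, edgeR adjusted p = 0.0296), and the call was lost without cold fasted library 1 (adjusted p = 0.0757), 2 (0.0928) or 3 (0.0591) and without fed library 1 (0.121). Over the list, 12, 15 and 13 genes were called lower without cold fasted library 1, 2 and 3, and 12, 15 and 18 without fed library 1, 2 and 3. With fed library 2 and cold fasted library 3 both removed, 8 were called lower. The cAMP response element TGACGTCA, which the activity-regulated factor CREB binds, occurred on either strand in 4 of the 29 list members with a promoter and in 2.03% of all genes. Btg2 held it in capitals below, 166 bases before the start (GRCm38.p6, chr1:134079284-134079351, minus strand).
Btg2: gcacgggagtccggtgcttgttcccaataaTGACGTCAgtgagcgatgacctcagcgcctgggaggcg

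Of 25 chaperone and stress genes of the endoplasmic reticulum tested, 11 were called, each lower (44%, against 9.16% of all genes), with a median of -0.39. Of 27 heat shock and cytosolic chaperone genes 11 were called lower (40.7%, against 9.16%) and 1 higher, with a median of -0.45. Pdia4, a protein disulfide isomerase, had 31.5, 32.0 and 36.7 CPM in cold fasted libraries and 62.8, 61.9 and 52.3 CPM in fed libraries (-0.82 ± 0.12, edgeR adjusted p = 0.00322). Pdia6, of the same family (ENSMUSG00000020571, chromosome 12, 17266545 to 17284770, plus strand), had 52.7, 53.6 and 50.3 CPM in cold fasted libraries and 85.5, 88.1 and 74.8 CPM in fed libraries (-0.66 ± 0.12, edgeR adjusted p = 0.00624). Chordc1, a partner of Hsp90 (ENSMUSG00000001774, chromosome 9, 18292125 to 18317442, plus strand), had 65.2, 73.2 and 71.3 CPM in cold fasted libraries and 115, 115 and 109 CPM in fed libraries (-0.69 ± 0.10, edgeR adjusted p = 0.00266). In each of these genes the groups were far apart, and the calls held without any single library, with adjusted p at most 0.0316. Hsf1, the master factor of the heat shock response, was the 1 called higher, with 36.3, 36.0 and 33.2 CPM in cold fasted libraries and 25, 25.1 and 29.2 CPM in fed libraries (0.41 ± 0.12, edgeR adjusted p = 0.0359). It lost its call in each removal but that of fed library 3, with an adjusted p of at least 0.0513.

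Most other chaperone calls were near the threshold. Hsph1, a nucleotide exchange factor of Hsp70, had 167, 152 and 198 CPM in cold fasted libraries and 290, 277 and 243 CPM in fed libraries (-0.65 ± 0.16, edgeR adjusted p = 0.0174), and its call was lost without cold fasted library 1 (adjusted p = 0.0749) or 2 (0.06) and without fed library 1 (0.0616) or 2 (0.0583). Hspa5, the chaperone BiP, had 188, 164 and 192 CPM in cold fasted libraries and 283, 297 and 222 CPM in fed libraries (-0.56 ± 0.17, edgeR adjusted p = 0.0397). Hspb1, a small heat shock protein, had 3.03, 3.68 and 3.79 CPM in cold fasted libraries and 8.19, 7.22 and 6.75 CPM in fed libraries (-1.08 ± 0.29, edgeR adjusted p = 0.0267). The groups did not overlap in either gene, and both calls were lost in each removal but that of fed library 3, with adjusted p between 0.0646 and 0.135 for Hspa5 and between 0.0508 and 0.106 for Hspb1. The endoplasmic reticulum list had 2, 6 and 5 genes called lower without cold fasted library 1, 2 and 3 and 3, 2 and 12 without fed library 1, 2 and 3. The heat shock list had 1, 2 and 9 without cold fasted library 1, 2 and 3 and 2, 1 and 14 without fed library 1, 2 and 3. Each list had 1 without fed library 2 and cold fasted library 3 together.

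The promoters of these lists held letters that stress factors are known to bind. The endoplasmic reticulum stress element occurred on either strand in 8 of 21 members with a promoter (38.1%), against 0.137% of all 27025 genes. The heat shock element GAANNTTC occurred in 11 of 21 members (52.4%), against 9.04% of all genes. Genes of these lists without the motif were also called, so the match describes the promoters and no more. The stretches below lie upstream of the start, with the motif in capitals: Hspa5 (GRCm38.p6, chr2:34771995-34772073, plus strand), Pdia6 (chr12:17266461-17266539, plus strand) and, with the heat shock element, Hspb1 (chr5:135887772-135887859, plus strand).
Hspa5: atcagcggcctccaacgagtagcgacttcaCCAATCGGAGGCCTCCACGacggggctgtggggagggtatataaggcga
Pdia6: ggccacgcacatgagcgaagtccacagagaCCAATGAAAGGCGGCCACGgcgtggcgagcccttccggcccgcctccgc
Hspb1: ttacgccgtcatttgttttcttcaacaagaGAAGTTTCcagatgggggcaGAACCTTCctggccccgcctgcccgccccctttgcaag

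**Figure D3:**
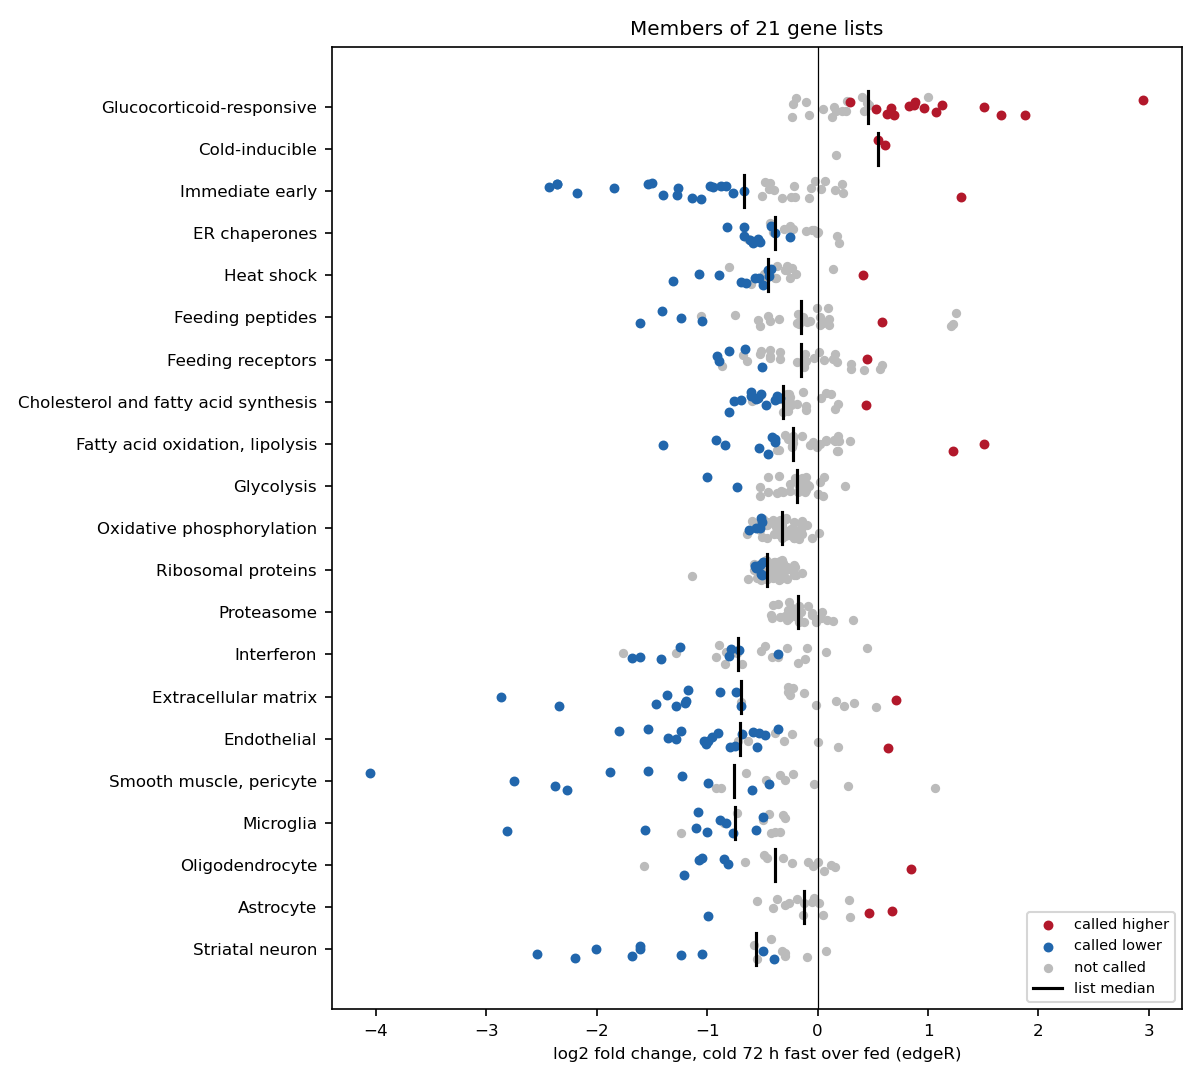
Log2 fold change, cold 72 h fast over fed (horizontal axis), of each tested member of 21 gene lists, with called genes in colour, uncalled genes grey and the median of the list as a black line. The glucocorticoid list has its median at 0.45 and the immediate early, chaperone, endothelial and microglial lists have theirs below 0.

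Of 36 cholesterol and fatty acid synthesis genes, 15 were called lower (41.7%, against 9.16% of all genes) and 1 higher (2.78%, against 8.78%), with a median of -0.31. Fdft1, squalene synthase (ENSMUSG00000021273, chromosome 14, 63145150 to 63179578, minus strand), had 62.7, 55.1 and 62.5 CPM in cold fasted libraries and 101, 86.9 and 86.9 CPM in fed libraries (-0.61 ± 0.10, edgeR adjusted p = 0.00446, at most 0.0199 without any single library). Msmo1, a sterol demethylase, fell by 0.80 on the log2 scale (-0.80 ± 0.17). Acaca, acetyl-CoA carboxylase, was the 1 called higher, with 244, 261 and 264 CPM in cold fasted libraries and 184, 179 and 205 CPM in fed libraries (0.44 ± 0.09, edgeR adjusted p = 0.0118), and it lost its call without fed library 2 (adjusted p = 0.0558) and also with the trend over gene span removed. The list had 2, 6 and 15 genes called lower without cold fasted library 1, 2 and 3, and 4, 6 and 20 without fed library 1, 2 and 3, and 4 without fed library 2 and cold fasted library 3 together.

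In fat use, the lipase gene Pnpla2 was higher and most called members were lower. Pnpla2, adipose triglyceride lipase (ENSMUSG00000025509, chromosome 7, 141455198 to 141460743, plus strand), had 49.0, 36.7 and 54.5 CPM in cold fasted libraries and 19.0, 26.6 and 14.5 CPM in fed libraries. Every cold fasted value was above every fed value (1.22 ± 0.19, edgeR adjusted p = 0.00328, at most 0.0186 without any single library). With Angptl4 it made the 2 of 33 fat oxidation and lipolysis genes called higher (6.06%, against 8.78% of all genes), beside 8 called lower (24.2%, against 9.16%). Ppara, the nuclear receptor that drives fasting fat oxidation in liver, had 3.48, 4.50 and 3.34 CPM in cold fasted libraries and 5.20, 9.28 and 6.89 CPM in fed libraries (-0.92 ± 0.21, edgeR adjusted p = 0.0159), and lost its call without cold fasted library 1 (adjusted p = 0.0754) or fed library 2 (0.0703). The 8 lower calls became 0, 3 and 3 without cold fasted library 1, 2 and 3 and 2, 1 and 9 without fed library 1, 2 and 3.

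Glucose, amino acid and zinc handling changed in single genes. Of 22 genes of the ATF4 amino acid response 3 were called, each lower (13.6%, against 9.16% of all genes). Slc7a11, the cystine and glutamate exchanger, had 57.1, 60.2 and 57.4 CPM in cold fasted libraries and 130, 121 and 111 CPM in fed libraries. The cold fasted values were close to each other and far below the fed ones (-1.05 ± 0.15, edgeR adjusted p = 0.00289, at most 0.0193 without any single library). P4ha1, a collagen prolyl hydroxylase on the hypoxia list, had 33.0, 39.5 and 38.3 CPM in cold fasted libraries and 60.5, 56.9 and 67.7 CPM in fed libraries (-0.74 ± 0.09, edgeR adjusted p = 0.00187). Slc39a10, a zinc importer, fell by 0.76 on the log2 scale and Slc30a10, an exporter of the zinc transporter family that carries manganese, by 0.65, and both held without each single library. Of 31 glycolysis genes 2 were called lower (6.45%, against 9.16%), Ldha (lactate dehydrogenase A, -0.73 ± 0.18) and Hk2 (hexokinase 2, -1.0 ± 0.29), and 0 genes were called lower without cold fasted library 1 or 2 or fed library 2.

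Genes of ribosomes and respiration lay to one side of 0 with few calls. All 66 cytosolic ribosomal protein genes tested had a log2 fold change below 0, with a median of -0.46, and 6 were called lower (9.09%, near the 9.16% of all genes). The 71 listed ribosomal genes in the count table summed to 5550, 5510 and 6300 CPM in cold fasted libraries and 8500, 9170 and 6300 CPM in fed libraries, and fed library 3 matched cold fasted library 3. Of 51 nuclear-encoded subunits of oxidative phosphorylation 50 lay below 0, with a median of -0.32, and 5 were called lower (9.8%). Without fed library 3 the calls were 39 ribosomal and 20 respiratory genes. Without cold fasted library 1 or 2 or fed library 1 or 2 they were 0 for both lists. Of the 15 mitochondrially encoded genes none had a count in any of the 12 libraries of the table, and 5 mitochondrial copies on chromosome 1 took between 2.54% and 3.45% of counts in cold fasted libraries and between 3.58% and 5.19% in fed libraries, 2 of them called lower.

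Endothelial genes were called lower in most members. Of 26 endothelial markers 18 were called lower (69.2%, against 9.16% of all genes) and 1 higher, with a median of -0.70. Ptprb, a receptor phosphatase of endothelium (ENSMUSG00000020154, chromosome 10, 116275523 to 116389535, plus strand), had 30.1, 31.4 and 31.8 CPM in cold fasted libraries and 81.6, 80.3 and 65.7 CPM in fed libraries. No cold fasted value came near a fed value (-1.29 ± 0.10, edgeR adjusted p = 0.00012). Flt1, a receptor of vascular endothelial growth factor, fell (-1.01), as did Tie1, an angiopoietin-pathway receptor (-1.80), and Emcn, endomucin of capillaries and veins (-1.23). Mfsd2a, the lipid transporter of the blood-brain barrier, was the 1 called higher, with 34.2, 28.2 and 39.9 CPM in cold fasted libraries and 23.3, 24.6 and 18.0 CPM in fed libraries (0.64 ± 0.14, edgeR adjusted p = 0.0145, at most 0.0467 without any single library). The endothelial list had 14, 14 and 19 genes called lower without cold fasted library 1, 2 and 3 and 13, 15 and 20 without fed library 1, 2 and 3, and 11 without fed library 2 and cold fasted library 3 together.

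Of 20 smooth muscle and pericyte markers 10 were called, each lower (50%, against 9.16% of all genes), with a median of -0.76. Myh11, a contractile myosin of smooth muscle cells (ENSMUSG00000018830, chromosome 16, 14194535 to 14291372, minus strand), had 3.73, 4.15 and 4.66 CPM in cold fasted libraries and 24.5, 15.6 and 20.4 CPM in fed libraries. This was a 4.82-fold lower level with no overlap (-2.27 ± 0.18, edgeR adjusted p = 0.00012). Acta2, smooth muscle actin, fell (-2.38), as did Rgs5, a pericyte gene (-1.23), and Myl9, a myosin light chain (-1.88), and these calls held without any single library. Of 16 meningeal fibroblast genes 10 were called lower (62.5%, against 9.16%) with a median of -1.39, among them Col3a1, with 0.86, 1.81 and 1.71 CPM in cold fasted libraries and 8.12, 16.2 and 7.60 CPM in fed libraries (-2.86 ± 0.52, edgeR adjusted p = 0.00682). Fn1, fibronectin, and Nid1, the basement membrane protein nidogen, fell (-1.28 and -1.20), among 11 of 23 matrix genes called lower (47.8%, against 9.16%). Without cold fasted library 1, 2 and 3 the smooth muscle list had 4, 5 and 7 lower calls, the meningeal list 4, 5 and 9 and the matrix list 7, 9 and 10. Without fed library 1, 2 and 3 they had 7, 5 and 12, then 6, 6 and 10, then 9, 7 and 11. Without fed library 2 and cold fasted library 3 together the lower calls were 5, 4 and 6.

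Genes of microglia, the interferon response, blood and choroid plexus were lower in part. Of 20 microglial and myeloid genes, all 20 lay below 0 and 10 were called lower (50%, against 9.16% of all genes), with a median of -0.75. Fcrls, a microglial Fc receptor-like gene (ENSMUSG00000015852, chromosome 3, 87250758 to 87263738, minus strand), had 3.36, 4.72 and 3.76 CPM in cold fasted libraries and 12.6, 13.4 and 9.0 CPM in fed libraries (-1.56 ± 0.24, edgeR adjusted p = 0.00328, at most 0.0224 without any single library). The microglial list had 3, 8 and 7 lower calls without cold fasted library 1, 2 and 3, and 7, 6 and 14 without fed library 1, 2 and 3, and 1 without fed library 2 and cold fasted library 3 together. Ifit3, an interferon-induced gene, fell by 1.25 on the log2 scale, among 8 of 26 interferon and antigen presentation genes called lower (30.8%, against 9.16%), a count that was 1, 3 and 6 without cold fasted library 1, 2 and 3 and 4, 2 and 10 without fed library 1, 2 and 3. Hbb-bs, a beta globin gene of red cells, had 0.73, 1.52 and 1.32 CPM in cold fasted libraries and 9.79, 6.68 and 4.64 CPM in fed libraries (-2.55 ± 0.39, edgeR adjusted p = 0.00337), and reads of near-identical globin genes cannot be told apart with certainty. Ttr, transthyretin, which the choroid plexus makes in bulk, had 2.44, 2.25 and 2.10 CPM in cold fasted libraries and 15.2, 85.7 and 180 CPM in fed libraries. The fed libraries differed more than 10-fold among themselves, and the call (-5.37 ± 1.15, edgeR adjusted p = 0.0171) was lost without cold fasted library 1 (adjusted p = 0.07), 2 (0.0567) or 3 (0.0554).

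Summed over each list, the marker levels of these cells did not overlap between groups. Endothelial genes summed to 435, 416 and 495 CPM in cold fasted libraries and 734, 722 and 651 CPM in fed libraries. Smooth muscle and pericyte genes summed to 233, 229 and 302 CPM in cold fasted libraries and 487, 567 and 389 CPM in fed libraries, and meningeal genes to 61.2, 75.9 and 100 CPM in cold fasted libraries and 226, 259 and 178 CPM in fed libraries. Choroid plexus genes summed to 92.5, 85.4 and 64.4 CPM in cold fasted libraries and 104, 211 and 313 CPM in fed libraries. Fed library 1 exceeded cold fasted library 1 by less than its 15.2 CPM of Ttr, so without Ttr these sums may overlap. Of 17 choroid plexus genes 6 were called lower (35.3%, against 9.16% of all genes) and 1 higher (5.88%, against 8.78%). The lower calls were between 2 and 9 in the single removals and 0 without fed library 2 and cold fasted library 3 together. The part of these cells' share of the tissue in the calls of their genes was not tested.

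**Figure D4:**
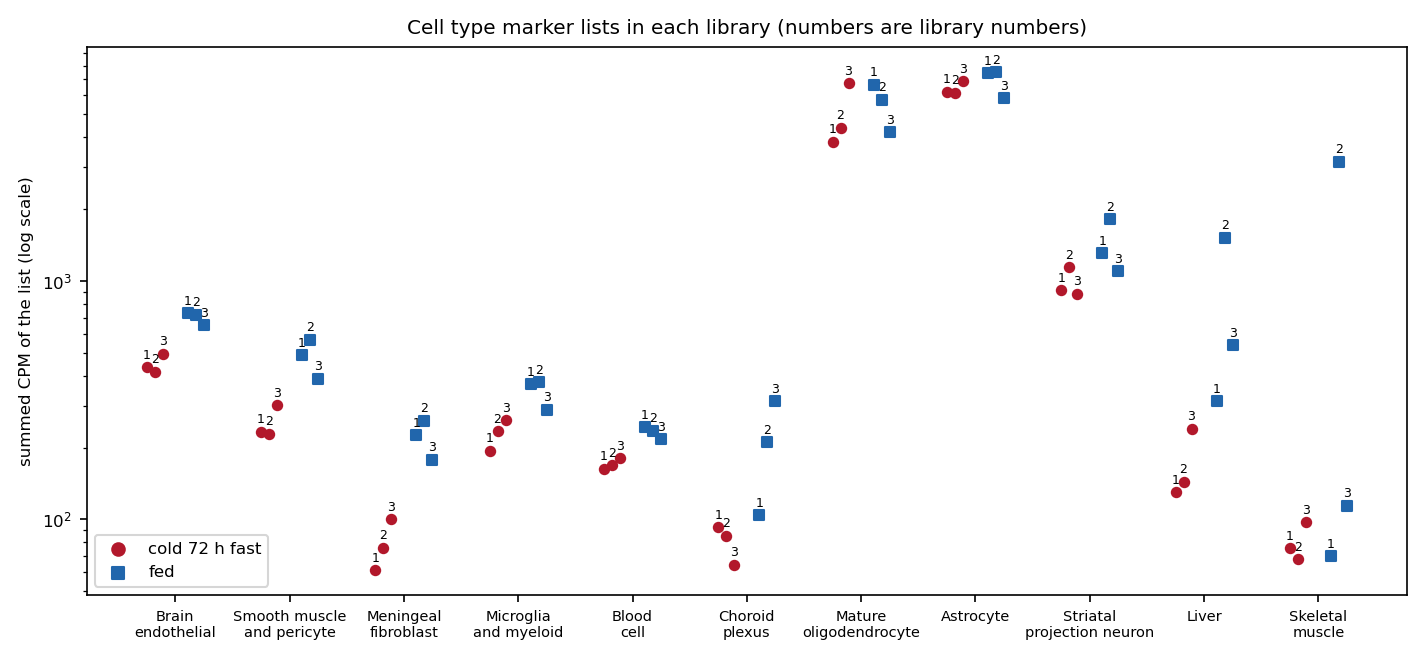
Summed CPM (log scale) of 11 cell type marker lists in each library, cold 72 h fast as circles and fed as squares, numbered by library. Endothelial, smooth muscle, meningeal, microglial and blood cell genes are lower in each cold fasted library, and fed library 2 stands alone at 3160 CPM of skeletal muscle genes.

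With all libraries kept, a minority of the oligodendrocyte and astrocyte genes was called. Ugt8a, the enzyme that makes myelin galactolipids (ENSMUSG00000032854, chromosome 3, 125865271 to 125938619, minus strand), had 34.1, 48.0 and 52.9 CPM in cold fasted libraries and 121, 95 and 97.3 CPM in fed libraries. The groups were far apart (-1.21 ± 0.16, edgeR adjusted p = 0.00189, at most 0.00816 without any single library). Of 18 mature oligodendrocyte genes 5 were called lower (27.8%, against 9.16% of all genes) and 1 higher, and the lower count was 1, 1 and 10 without cold fasted library 1, 2 and 3 and 1, 1 and 7 without fed library 1, 2 and 3. The median of this list was -0.38. Without fed library 2 and cold fasted library 3 together 8 were called lower, with a median of -0.68. Agt, angiotensinogen, which astrocytes of the hypothalamus make, had 195, 221 and 237 CPM in cold fasted libraries and 152, 139 and 120 CPM in fed libraries (0.67 ± 0.11, edgeR adjusted p = 0.00473, at most 0.0211 without any single library). Aqp4, the water channel of astrocyte endfeet, had 80.3, 95.5 and 149 CPM in cold fasted libraries and 266, 214 and 165 CPM in fed libraries (-0.99 ± 0.24, edgeR adjusted p = 0.0206). Its groups did not overlap, but the call was lost without cold fasted library 1 (adjusted p = 0.0832) or 2 (0.0653) and without fed library 1 (0.0683).

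Of 21 proliferation genes 4 were called lower (19%, against 9.16% of all genes), a count that lay between 2 and 6 in the single removals. Ccnd2, cyclin D2, had 13.7, 16.4 and 10.4 CPM in cold fasted libraries and 31.1, 37.6 and 31.0 CPM in fed libraries (-1.30 ± 0.16, edgeR adjusted p = 0.0012, at most 0.0119 without any single library). Mki67, which marks dividing cells, had 0.52, 1.30 and 0.84 CPM in cold fasted libraries and 4.21, 3.90 and 3.13 CPM in fed libraries (-2.07 ± 0.33, edgeR adjusted p = 0.00395). All 3 cold fasted values of Mki67 lay below all 3 fed ones. Cdkn1a, described above, is an inhibitor of the same cycle and was the gene of the glucocorticoid list with the largest rise.

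Among neuronal genes, 10 of 18 striatal projection neuron genes were called lower (55.6%, against 9.16% of all genes), a count that was 0, 9 and 1 without cold fasted library 1, 2 and 3 and 7, 2 and 11 without fed library 1, 2 and 3, and 0 without fed library 2 and cold fasted library 3 together. Htr7, a serotonin receptor, rose to 59.3, 46.3 and 44.3 CPM in cold fasted libraries, against 30.2, 25.5 and 37.7 CPM in fed libraries (0.68 ± 0.14, edgeR adjusted p = 0.0106, at most 0.0492 without any single library). Pcsk1 and Pcsk2, the convertases that cut neuropeptide precursors, went in opposite directions at -0.41 ± 0.12 and 0.41 ± 0.13. Both calls were near the threshold (edgeR adjusted p = 0.0311 for Pcsk1 and 0.0497 for Pcsk2). Pcsk1 lost its call in each removal but that of fed library 3 (adjusted p between 0.0635 and 0.103), and Pcsk2 without cold fasted library 1 or 3 or fed library 1 or 2 (between 0.113 and 0.177).

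Of 17 clock genes 2 were called higher (11.8%, against 8.78% of all genes) and 2 lower (11.8%, against 9.16%), shares near those of all genes. The higher calls were between 1 and 3 and the lower calls 1 in each single removal, and both were 0 without fed library 2 and cold fasted library 3 together. Rora, a nuclear receptor that activates the clock gene Arntl, had 942, 791 and 953 CPM in cold fasted libraries and 521, 400 and 531 CPM in fed libraries (0.89 ± 0.16, edgeR adjusted p = 0.00524). Dbp, a clock output factor, had 21.1, 20.8 and 22.2 CPM in cold fasted libraries and 38.3, 37.0 and 31.1 CPM in fed libraries (-0.73 ± 0.14, edgeR adjusted p = 0.00741). Both held without each single library, and neither gene's groups overlapped.

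Long genes and lncRNAs were called higher more often than lower. Over 20357 genes with an annotated span, Spearman's rho between span and log2 fold change was 0.263, as a description across genes that share libraries. Among the longest 10% of genes, with spans of at least 125 kb, the median log2 fold change was 0.34 and 518 of 2036 were called higher, beside 81 lower. Among the shortest 10%, with spans up to 2.72 kb, the median was -0.23, with 50 of 2036 called higher and 135 lower. For both sets the shares over all genes tested were 8.78% called higher and 9.16% called lower. Of 3141 lncRNA genes 402 (12.8%, against 8.78% of all genes) were called higher and 108 (3.44%, against 9.16%) lower. The share of all counts in lncRNA genes was 3.40%, 3.46% and 3.07% in cold fasted libraries and 2.41%, 2.19% and 3.15% in fed libraries, so fed library 3 lay within the cold fasted range. Neat1, the RNA scaffold of nuclear paraspeckles, had 82.5, 122 and 93.2 CPM in cold fasted libraries and 37.2, 40.8 and 42.9 CPM in fed libraries (1.30 ± 0.20, edgeR adjusted p = 0.00405, at most 0.0177 without any single library). With the trend over gene span removed, a setting chosen after seeing the data, 3890 genes were called, and Rora was no longer called (adjusted p = 0.378) while Neat1 was (0.00237).

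Apart from Cdkn1a, the named genes with the largest rises were expressed at low levels. Tigit, an immune checkpoint receptor (ENSMUSG00000071552, chromosome 16, 43648867 to 43664146, minus strand), had 4.61, 2.69 and 2.37 CPM in cold fasted libraries and 0.34, 0.10 and 0.43 CPM in fed libraries, a 10.9-fold difference (3.44 ± 0.41, edgeR adjusted p = 0.00118). Itgad, an integrin alpha chain, had 11.5, 7.45 and 21.6 CPM in cold fasted libraries and 2.01, 1.56 and 1.96 CPM in fed libraries (2.87 ± 0.34, edgeR adjusted p = 0.00139). Pla2g3, a secreted phospholipase (ENSMUSG00000034579, chromosome 11, 3488284 to 3499350, plus strand), had 8.37, 7.96 and 10.5 CPM in cold fasted libraries and 2.16, 1.66 and 1.34 CPM in fed libraries (2.38 ± 0.21, edgeR adjusted p = 0.000219). The rule that named these genes took only called genes whose groups did not overlap, so their lack of overlap adds no support. All 3 calls held without each single library. Other genes overlap 28.3% of the span of Itgad and 45% of that of Pla2g3. The remaining named rises, between 2.28 and 3.38, were Vmn2r56, Vmn2r53 and Vmn2r2 (vomeronasal receptor genes with near-identical copies, so that reads may be split among them), Atp1a4, Otoa, Tex35, Mrgpra6 and Meiob. The mean fed levels of these genes and of Tigit were below 1 CPM. They reached the rule's mean of 1 CPM over both groups only through the cold fasted libraries.

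Among called genes of at least 1 CPM whose groups did not overlap, the 12 largest falls were genes of liver and skeletal muscle. Their fed levels were highest in fed library 2. Myh4, a myosin of fast skeletal muscle, had 0.18, 0.13 and 0.15 CPM in cold fasted libraries and 0.57, 772 and 9.22 CPM in fed libraries. Ckm, muscle creatine kinase, had 0.03, 0.32 and 0.12 CPM in cold fasted libraries and 0.34, 136 and 2.48 CPM in fed libraries. Fed library 1 was close to the cold fasted libraries in both genes. The call of Myh4 was lost without cold fasted library 1 (adjusted p = 0.104), 2 (0.0896) or 3 (0.0835), and that of Ckm without cold fasted library 1 (0.123), 2 (0.0959) or 3 (0.0979) or fed library 2 (0.0674). Alb, serum albumin of liver, had 0.15, 0.67 and 0.18 CPM in cold fasted libraries and 0.49, 607 and 92.4 CPM in fed libraries, which overlapped. Its call was lost without cold fasted library 1 (adjusted p = 0.086), 2 (0.0634) or 3 (0.0672). Skeletal muscle genes called lower numbered 7 of 17 (41.2%, against 9.16% of all genes), and 2 without fed library 2 but 13 without fed library 1 or 3. Liver genes called lower numbered 15 of 20 (75%, against 9.16%), and 7 without fed library 2. Without cold fasted library 1, 2 and 3 the counts were 0, 1 and 0 for muscle and 0, 0 and 2 for liver.

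The cold fasted group was also tested directly against the 72 h fast without cold, the comparison in which the labels differ by the cold alone. No gene was called by the edgeR quasi-likelihood test among 20408, with a smallest adjusted p of 0.203, and 1296 genes (6.35%) had an unadjusted p below 0.05, 387 higher (1.9%) and 909 lower (4.45%). DESeq2 called 57, the edgeR likelihood ratio test 32 and voom with quality weights 28. In the authors' deposited table of the same comparison, which rests on a likelihood ratio test over 18489 genes, 30 had an adjusted p below 0.05 and 303 a q-value below 0.05. The adjusted p of that table is stricter than a Benjamini-Hochberg one: Fkbp5 had 0.88 there, with a q-value of 0.00832. The 30 genes are therefore not on the scale of the other counts. A gene missing from the calls is not shown to be equal in the fasted groups.

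The 5 named genes with the smallest p included Ddit4 and Fkbp5 of the glucocorticoid list. Ddit4 had 53.6, 41.7 and 63.1 CPM in cold fasted libraries and 26.4, 23.1 and 28.4 CPM after the 72 h fast alone (1.02 ± 0.16, edgeR adjusted p = 0.203, DESeq2 adjusted p = 2.85e-05). Fkbp5 had 84.2, 68.8 and 77.0 CPM in cold fasted libraries and 57.2, 48.9 and 49.3 CPM after the 72 h fast alone (0.57 ± 0.10, edgeR adjusted p = 0.203, DESeq2 adjusted p = 0.000362). Neither gene's groups overlapped, and over the 32 genes of that list 30 stood above 0 and 23 had an unadjusted p below 0.05, each higher, with a median of 0.53, against 1.9% of all genes with such a p and a higher value. Because the members were chosen with earlier results of these data known, this excess is a description only. Other lists held lower values with an unadjusted p below 0.05, against 4.45% of all genes. Among these were 7 of 16 meningeal, 8 of 26 endothelial, 7 of 36 cholesterol and fatty acid synthesis and 5 of 23 matrix genes. Higher values with such a p numbered 0, 3, 1 and 0 in these lists. Against the 1.9% of all genes, such higher values also occurred in 6 of 33 fat oxidation and lipolysis genes (2 lower) and 5 of 37 immediate early genes (0 lower). Tma16, a ribosome biogenesis gene in yeast, stood at 0.70 ± 0.11, Srr, serine racemase, at -0.49 ± 0.09, and 2900009J06Rik, with 70.1% of its span covered by other genes, at -1.67 ± 0.29, each with an edgeR adjusted p of 0.203. Cdkn1a had 66.8, 32.3 and 75.1 CPM in cold fasted libraries and 29.5, 18.7 and 20.7 CPM after the 72 h fast alone (1.34 ± 0.27, edgeR adjusted p = 0.343), and was called without cold fasted library 2 (adjusted p = 0.0242). In the authors' deposited table the log2 fold changes were 1.02 for Ddit4 and 0.56 for Fkbp5, with q-values of 1.55e-05 and 0.00832. Fmo2, a flavin-containing monooxygenase chosen after its values were seen, had 8.25, 9.07 and 4.60 CPM in cold fasted libraries and 2.08, 1.94 and 1.86 CPM after the 72 h fast alone (1.89 ± 0.33, edgeR adjusted p = 0.203). In the authors' deposited table Fmo2 stood at 1.89, with an adjusted p of 3.04e-10 by the stricter adjustment of that table and a q-value of 2.5e-10.

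Agrp and Pomc had lower values in the cold fasted group than in the 72 h fasted group without passing, while 11 of the 29 feeding peptide genes lay above 0 and the list had a median of -0.09. Agrp had 3.61, 3.58 and 3.58 CPM in cold fasted libraries and 4.63, 5.89 and 5.64 CPM after the 72 h fast alone (-0.59 ± 0.15, edgeR adjusted p = 0.469), and Pomc 1.59, 3.04 and 2.28 CPM in cold fasted libraries and 3.36, 5.59 and 3.73 CPM after the 72 h fast alone (-0.87 ± 0.28, edgeR adjusted p = 0.598). Neither pair of groups overlapped. Fos, chosen after its values were seen, was on the opposite side of its comparison with fed mice, with 7.73, 5.74 and 7.24 CPM in cold fasted libraries and 3.30, 2.40 and 3.68 CPM after the 72 h fast alone (1.14 ± 0.27, edgeR adjusted p = 0.45). Both comparisons use the same cold fasted libraries.

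**Figure D5:**
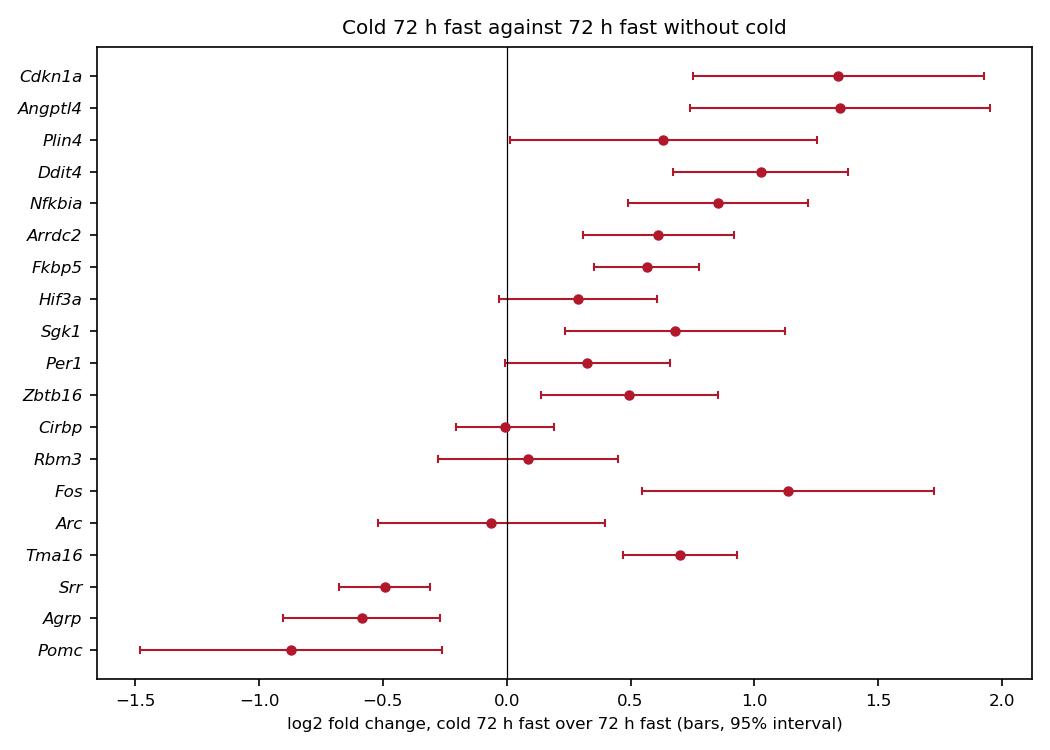
Log2 fold change, cold 72 h fast over 72 h fast without cold (horizontal axis), with 95% intervals for 19 genes. Fkbp5, Ddit4 and Cdkn1a lie above 0 with intervals that exclude it, and Cirbp and Rbm3 have intervals across 0; none of the 19 passed the adjusted threshold.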

How the data were processed

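RNA-seq of mouse hypothalamus gave 1 count table of 12 libraries in 4 groups of 3. The deposited whole-number counts per gene were made by the authors with HISAT2 and featureCounts on mm10, per the submitters' processing notes, which also name edgeR. The log2 fold changes, p-values and q-values of the authors' deposited table of the cold fasted against the 72 h fasted group were used only where named. Depth per library is given with the results, and it limits genes of low count.

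Counts were fitted with edgeR 4.0.16 in R 4.3.3: filterByExpr, TMM scaling, 1 mean per group over all 12 libraries, the robust quasi-likelihood F test with a prior count of 0.125 and Benjamini-Hochberg adjustment over all 20408 genes. CPM are TMM-scaled. Genes are named by a rule: among called genes of at least 1 CPM without overlap, the 12 largest changes in each direction with predicted genes and pseudogenes left out; from each list up to 4 called members with the smallest adjusted p; any called member of the feeding, neuroendocrine, glucocorticoid, cold-inducible, thermoregulatory and thyroid lists; Agrp, Npy, Pomc and Cartpt; and the 5 smallest p-values of the direct comparison. Avp, Per1, Nr3c1, Srsf5, Lepr, Maff, Fos, Hsf1, Hspa5, Hspb1, Mfsd2a and Fmo2 fall outside it and were chosen after their values were seen. The lists and members were chosen with earlier results of these data known. Coordinates are GRCm38 with GENCODE annotation, and promoters are from RefSeq (GRCm38.p6). On simulated counts for cold fasted against fed over 20408 genes, the test recovered 32% of 50 genes changed 1.5-fold, 58% at 2-fold, 90% at 3-fold and 94% at 4-fold, with 9 false calls. The 200 changed genes all had a mean count of at least 20, and counts were drawn independently for each gene and library. Shared deviations of a library, such as those of fed library 2, were not simulated. These rates therefore do not give the recovery or the false calls of the real comparison. Alternatives used DESeq2 1.42.0, limma 3.58.1 and sva 3.50.0. Deviations of same-numbered libraries from their group means had correlations of -0.06, -0.01 and -0.23 for cold fasted and fed libraries. For cold fasted and 72 h fasted libraries they were 0.12, 0.15 and -0.06. With 3 libraries per group these values cannot show whether same-numbered libraries were handled together, and the main fit used no pairing.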

Additional observations from a re-analysis of the deposited data

How the results depend on the processing

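Over the 93 called genes named, 60 kept their call without any single library. Under every alternative but the surrogate variable 51 kept it, and under every alternative 19 did. Genes called in cold fasted against fed mice ranged from 932 to 5507 when 1 library was left out, 533 to 2862 higher and 396 to 2645 lower. Without fed library 2 and cold fasted library 3 there were 476, 217 higher and 259 lower. With 1 surrogate variable, which itself moved with the groups, 121 were called, 37 higher and 84 lower. voom with quality weights called 7381, 3525 higher and 3856 lower. DESeq2 called 2688 higher, and the 2 groups fitted alone 1212 lower. The replicate block called 3538, 1826 higher and 1712 lower, of which 3194 were among the 3661. Same-numbered libraries are not known to share more than a number. In the direct comparison with the 72 h fast, where the edgeR test called 0, DESeq2 called 57 (29 higher, 28 lower), voom 28 (16 and 12) and the likelihood ratio test 32 (16 and 16). Without the gene-span trend there was 1, which was higher. Leaving out 1 library gave 0 to 5, 0 to 1 higher and 0 to 5 lower, and the replicate block 0. Directions turned only in values that had not passed. Without fed library 2 and cold fasted library 3, Avp was 0.089, Cartpt -0.006, Npy 0.174 and Srsf5 -0.056. Cartpt was -0.244 with voom, and Npy and Srsf5 were 0.599 and -0.381 with the surrogate variable. When 1 library was left out, Cartpt ranged from -0.099 to 0.376, Npy from -0.345 to 0.052 and Srsf5 from -0.015 to 0.32. Against the 72 h fast, Cirbp was 0.02 with RLE scaling and DESeq2, 0.022 without a filter and with the 1 CPM filter, 0.016 without the span trend and -0.058 to 0.075 when 1 library was left out, and Rbm3 was -0.03 to 0.3. The causes were not tested.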
